A study of Mus musculus with 6 samples.

Results

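The genes described here encode the proteasome, the barrel-shaped protease that degrades ubiquitin-tagged proteins, and were taken as every gene symbol made of Psm, a letter from a to g and a number. Of 24786 gene symbols in the deposited counts, 48 matched, and 46 of those had enough counts to be tested. They were followed in mouse intestinal organoids, cultured epithelial structures grown from gut stem cells, of wild-type genotype. The organoids were dissociated over 10 min into single cells and exposed over 16 h to 100 µM tyramine (TA100, 3 libraries), a trace amine made from tyrosine, by gut bacteria among others, or as controls whose titles name the solvent DMSO (3 libraries). The design text calls the control medium only, and the sources used here do not say whether the tyramine cultures held DMSO. They also leave out strain, age and gut segment. Nothing says that replicates came from separate animals or cultures, so every p-value below reflects variation among these 6 libraries, and that variation may be technical.

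As background, the proteasome has a core particle built of stacked rings of alpha and beta subunits, and some beta subunits carry the cutting sites. A regulatory particle docks on the core: its ring of ATPases unfolds substrates, and its non-ATPase base and lid subunits bind ubiquitin chains and remove them. In cells exposed to interferon, the cutting subunits are replaced by the immunoproteasome subunits encoded by Psmb8, Psmb9 and Psmb10, which shape the peptides shown on class I molecules. Other caps, the activators, can dock in place of the regulatory particle, and dedicated chaperones assemble the parts. The transcription factor NFE2L1 is known in mammalian cells for raising proteasome subunit genes together when proteolysis falls short.

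Library totals were 29176428 to 32489563 counts with tyramine and 28316372 to 35035955 counts with DMSO. The tyramine libraries scattered more, with a chi-square divided by its degrees of freedom of 43.8 to 80.8 between them against 22.5 to 29.0 between DMSO libraries. The 10 most counted genes took 13.0% to 15.0% of counts with tyramine and 9.79% to 10.4% with DMSO. Intestinal epithelial markers were present in every library, with a summed level of 17944 to 20242 CPM (counts scaled to a common effective library size) with tyramine and 20173 to 21727 CPM with DMSO. Of those 10 markers, 2 rose (Cdh1 and Krt18) and 4 fell, where 12.5% of all genes tested rose and 13.3% fell. Among the falling markers was Vil1, an actin bundler of the brush border (979, 849 and 617 CPM with tyramine, 2160, 2277 and 2130 CPM with DMSO). In cultures of mixed cells, fewer cells of a type and less RNA per cell cannot be told apart, and the part that these shifts have in the results below was not tested.

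Genes of the standard proteasome rose, whereas the immunoproteasome genes and the activator gene Psme1 were lower with tyramine. Of the 46 tested members, 25 rose, 3 fell and 18 did not pass the threshold (quasi-likelihood test of edgeR, with p-values adjusted by Benjamini-Hochberg over all 12139 genes tested and a threshold of 0.05). Over all those genes, 12.5% rose and 13.3% fell, 25.8% in all. The median log2 fold change, tyramine over DMSO, was 0.48 over the members and 0.00 over all genes. The 23 structural genes that rose are spread over both rings, the ATPases, the base and the lid, and every one of the 31 tested structural genes had a log2 fold change above 0 (0.18 to 1.27, median 0.59). Summed over all 48 members, the genes took 1.02%, 1.05% and 1.09% of counts in tyramine replicates 1 to 3, and 0.797%, 0.810% and 0.819% in DMSO replicates 1 to 3. The groups did not overlap, at 1.05 ± 0.037% against 0.809 ± 0.0112% (SD, n = 3 each), a ratio of 1.30. The number of rising members was 16 without DMSO replicate 1 and 19 to 28 without any other single library.

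**Figure D1:**
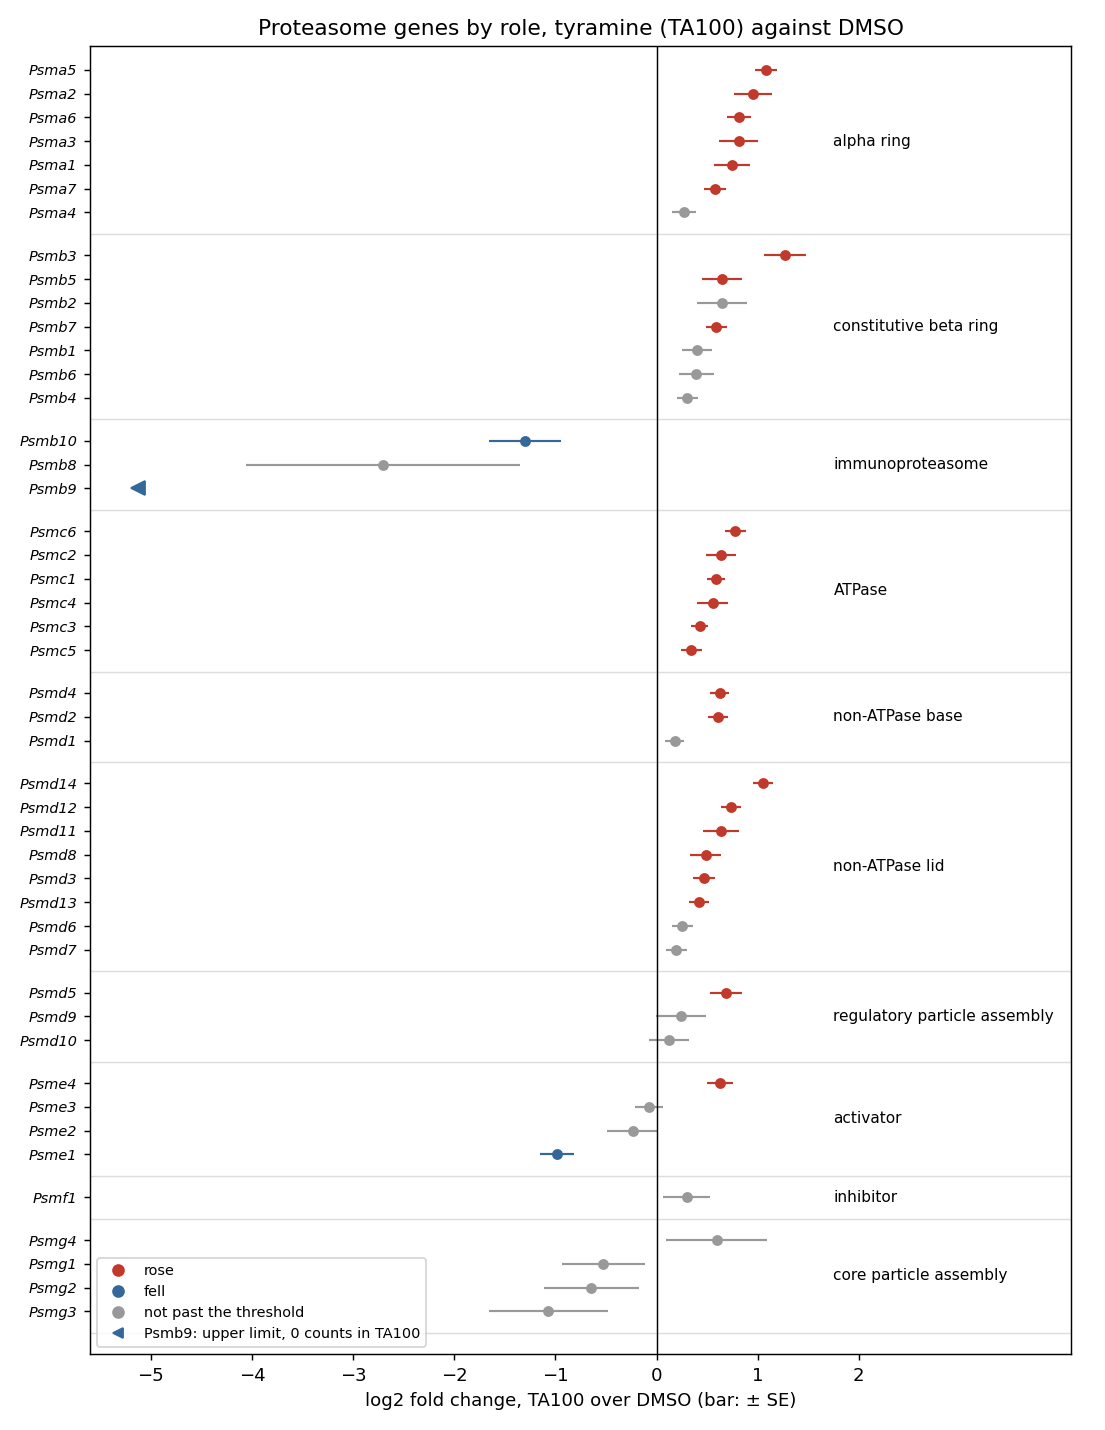
Log2 fold change, tyramine (TA100) over DMSO, with its standard error for the 46 tested proteasome genes, grouped by role, with 3 libraries per group. All alpha ring, beta ring, ATPase, base and lid genes lie right of 0 and the 3 immunoproteasome genes left of it; the triangle for Psmb9 marks an upper limit, since it had 0 counts in the tyramine libraries.

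Library by library, the shift was seen in each tyramine library. Relative to the mean of the DMSO libraries, the median of the 31 structural genes was 0.49, 0.55 and 0.63 on the log2 scale in tyramine replicates 1 to 3, and -0.03, 0.02 and 0.05 in DMSO replicates 1 to 3. All 31 genes were above their DMSO mean in each tyramine library, and 29, 30 and 30 of them were above their highest DMSO value in tyramine replicates 1 to 3. The groups did not overlap, tyramine above, for 27 of the 31 genes, where over all genes tested 20.9% had that pattern and 23.6% the opposite one. The size of the change differed between genes of the same ring or particle and tended weakly to be smaller for genes with more counts. Between log2 mean CPM and log2 fold change, Spearman's rho was -0.33 and Pearson's r -0.39 across 31 genes, which share libraries and are not independent.

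**Figure D2:**
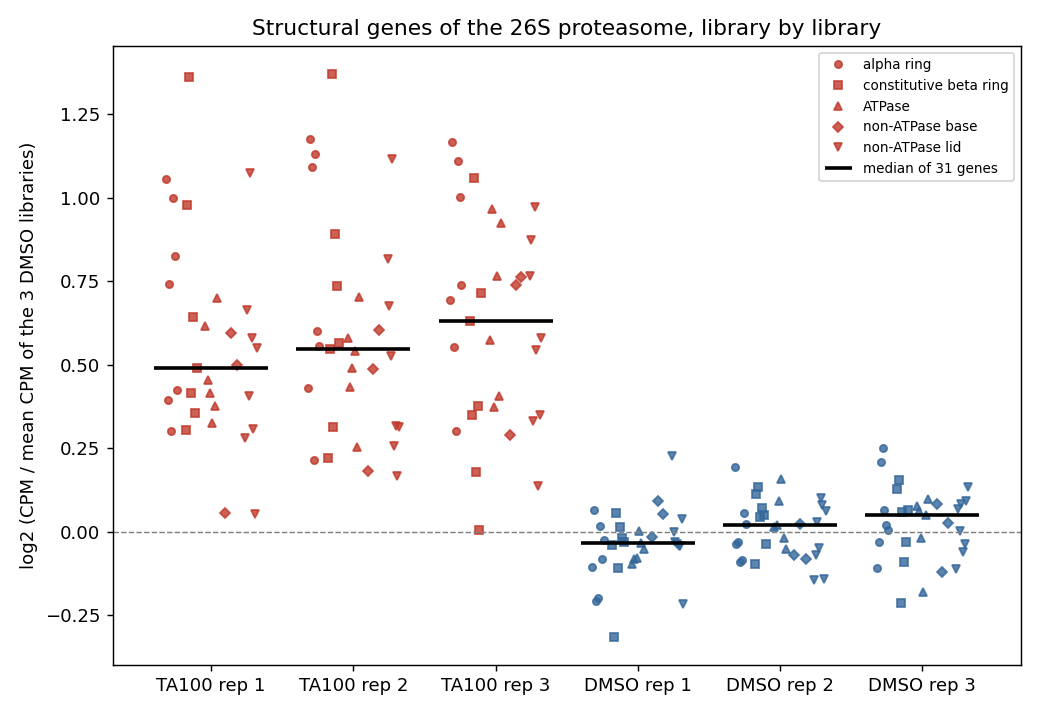
Log2 ratio of each structural gene's CPM to its mean over the 3 DMSO libraries, one column of points per library, with symbols for the role and a bar at the median of 31 genes. The tyramine (TA100) medians lie at 0.49 to 0.63 and the DMSO medians at -0.03 to 0.05.

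In the alpha ring, which forms the gate of the core, 6 of 7 tested genes rose, against 12.5% of all genes tested. Psma4 did not pass the threshold (log2 fold change 0.27, edgeR's adjusted p = 0.123). Psma5 had 200.5, 219.5 and 217 CPM with tyramine, against 101.5, 94.5 and 105 CPM with DMSO. All tyramine values were above all DMSO values, and the gene rose 2.12-fold (log2 fold change 1.08, SE 0.11; edgeR's adjusted p = 7.57e-05). Psma2, Psma6, Psma3, Psma1 and Psma7 rose with log2 fold changes of 0.96, 0.82, 0.81, 0.75 and 0.58. Psma2 was at 195 CPM in tyramine replicate 1 and at 335 and 333 CPM in the other two, so its size of change varied between libraries. The span of Psma2 overlaps the protein-coding gene AW209491 on the same strand. Psma8, an alpha subunit gene known from testis, had 0 counts in all 6 libraries, which allows up to 3 counts per library, or 0.0823 to 0.106 CPM, by counting error only.

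In the constitutive beta ring, 3 of 7 genes rose, against 12.5% of all genes tested. The other 4 did not pass the threshold, and all 7 log2 fold changes were above 0. Psmb3, a beta subunit without a cutting site, had 49.9, 50.1 and 40.4 CPM with tyramine and 20.1, 21.3 and 16.7 CPM with DMSO. Its 2.41-fold rise was the largest rise among the 46 tested members (log2 fold change 1.27, SE 0.21; edgeR's adjusted p = 0.00165), with no overlap of groups. Psmb1, Psmb2 and Psmb4 had log2 fold changes of 0.40, 0.65 and 0.31 with edgeR's adjusted p-values of 0.0783, 0.0827 and 0.0599. In each of them the groups did not overlap, tyramine above, a pattern that 20.9% of all genes tested had. Psmb7 and Psmb5, which rose, and Psmb6, which did not pass, carry the cutting sites and are given below beside their immunoproteasome counterparts.

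Every one of the 6 ATPase genes rose, by log2 fold changes of 0.35 (Psmc5) to 0.78 (Psmc6), and in all 6 the groups did not overlap. Over all genes tested, 12.5% rose and 20.9% had all tyramine values above all DMSO values. Psmc6 had 305.5, 306 and 357 CPM with tyramine and 182, 181.5 and 201 CPM with DMSO, a 1.72-fold rise (SE 0.11 on the log2 scale; edgeR's adjusted p = 0.000557). Psmc1 and Psmc3 rose by log2 fold changes of 0.59 and 0.43. Psmc2 was at 297 CPM in tyramine replicate 3 against 208 and 205 CPM in tyramine replicates 1 and 2, and rose (log2 fold change 0.64). Psmc4 rose with a log2 fold change of 0.55.

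Of the 3 base genes that are not ATPases, Psmd2 and Psmd4 rose and Psmd1, a scaffold subunit gene, did not pass the threshold (log2 fold change 0.18, adjusted p = 0.203). Psmd4, a receptor for ubiquitin chains, had 689, 740.5 and 827 CPM with tyramine, against 506, 461 and 497 CPM with DMSO. It rose 1.54-fold (log2 fold change 0.63, SE 0.10; edgeR's adjusted p = 0.00112) and the groups did not overlap. Psmd2, the other large scaffold, rose 1.53-fold.

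Among the 8 lid genes, 6 rose, against 12.5% of all genes tested. Psmd6 and Psmd7 did not pass the threshold (log2 fold changes 0.26 and 0.20). Psmd14, the deubiquitinase that cuts chains off the substrate at the entrance of the core, had 382, 394 and 357 CPM with tyramine and 177, 176 and 193 CPM with DMSO. All tyramine values were at least 357 CPM and all DMSO values at most 193 CPM, a 2.08-fold rise (log2 fold change 1.05, SE 0.10) with the smallest adjusted p among the members (edgeR's adjusted p = 4.39e-05). Psmd12, a lid scaffold subunit, rose 1.67-fold, and Psmd11, Psmd8, Psmd3 and Psmd13 rose by log2 fold changes of 0.64, 0.49, 0.47 and 0.42. Psmd7, the partner of Psmd14 in the lid, had 817, 883 and 1002 CPM with tyramine and 807, 714 and 839 CPM with DMSO, and the groups overlapped.

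Some of these calls were lost when 1 library was left out. Over all genes, 1518 rose with every library, against 960, 934 and 1020 without DMSO replicates 1, 2 and 3. Without tyramine replicates 1, 2 and 3, 1432, 1390 and 1510 rose. Psmc2 was not past the threshold without DMSO replicate 1 (adjusted p = 0.0596). Psma1 and Psmd3 were not without DMSO replicate 1 or 3, and Psma3 and Psmd13 were not without DMSO replicate 1 or 2, with adjusted p-values up to 0.0662 for Psma1 and 0.06 for Psmd13. Psmc4 lost its call without DMSO replicate 1 or 3 or tyramine replicate 2, and Psmd11 without DMSO replicate 2 or 3 or tyramine replicate 2. Psmb5 and Psmd8 lost theirs without any 1 library but one (tyramine replicate 3 for Psmb5, tyramine replicate 2 for Psmd8), and Psmc5 without any DMSO library or tyramine replicate 1. Conversely Psma4 passed without DMSO replicate 3 (adjusted p = 0.0177), and Psmb2, Psmb4, Psmb6 and Psmd6 passed without tyramine replicate 3. In none of those fits did the log2 fold change of a structural gene fall below 0.

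Compared per length, the structural genes covered a wide range in both groups although their proteins are built into the same particle. In CPM per kilobase of exon, tyramine libraries averaged 19.0 (Psma3) to 304 (Psma4) in the alpha ring, 20.3 (Psmb3) to 123 (Psmb4) in the beta ring and 17.0 (Psmd11) to 398 (Psmd7) in the lid. With DMSO the same genes stood at the ends, at 10.8 to 251, 8.43 to 99.5 and 10.9 to 348 CPM per kilobase. Psmd7 had the highest level of the 46 tested members in both groups (398 ± 41.7 with tyramine and 348 ± 28.8 with DMSO, SD, n = 3 each). Psmc3 and Psma4 followed with tyramine (319 ± 12.9 and 304 ± 10.7) and in the order Psma4, Psmc3 with DMSO (251 ± 42.2 and 238 ± 14.3), closer to each other than the spread of Psma4 there. Union exon length stands in for the transcript actually made, so these levels are approximate.

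Windows of RefSeq sequence before the start of the transcript (build GRCm38.p6) were available for 39 of the 46 tested members. They are shown for Psmb3, Psma5 and Psmd14, which had the largest log2 fold changes above 0, and for Psmb10, an immunoproteasome gene that fell. The 4 stretches lie on chr11:97703184-97703398 (plus strand), chr3:108256676-108256877 (plus strand), chr2:61711444-61711693 (plus strand) and chr8:105938445-105938642 (minus strand), and each is kept to bases outside annotated exons; Psma5 and Psmd14 were added after their values were seen. Capitals mark matches to the motifs searched.
Psmb3: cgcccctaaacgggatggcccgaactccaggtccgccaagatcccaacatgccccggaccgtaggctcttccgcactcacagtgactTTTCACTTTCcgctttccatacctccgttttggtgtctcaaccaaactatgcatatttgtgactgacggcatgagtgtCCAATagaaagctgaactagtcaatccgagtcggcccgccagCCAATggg
Psma5: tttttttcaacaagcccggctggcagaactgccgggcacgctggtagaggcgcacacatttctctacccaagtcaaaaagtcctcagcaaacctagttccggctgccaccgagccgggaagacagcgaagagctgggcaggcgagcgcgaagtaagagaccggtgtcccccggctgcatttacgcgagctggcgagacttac
Psmd14: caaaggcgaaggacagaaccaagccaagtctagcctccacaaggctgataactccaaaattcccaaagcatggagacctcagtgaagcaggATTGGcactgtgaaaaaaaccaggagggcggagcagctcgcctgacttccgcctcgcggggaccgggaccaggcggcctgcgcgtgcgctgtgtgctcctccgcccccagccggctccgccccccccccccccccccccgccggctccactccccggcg
Psmb10: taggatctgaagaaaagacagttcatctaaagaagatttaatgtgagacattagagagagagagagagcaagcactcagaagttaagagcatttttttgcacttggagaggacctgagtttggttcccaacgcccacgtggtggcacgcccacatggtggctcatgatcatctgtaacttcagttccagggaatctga
Psmb3 carries a match to the interferon-stimulated response element on the opposite strand, starting 163 bases before its start. It also carries CCAAT boxes on its own strand, starting 85 and 43 bases before its start. Psmd14 carries a CCAAT box on the opposite strand starting 159 bases before its start, and the Psma5 and Psmb10 stretches hold no match.

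On both strands of the 250 bases before each start, the antioxidant response element core TGACNNNGC, the kind of site that NFE2L1 and NFE2L2 bind, was present in 5 of 39 tested members (12.8%). The share was 3 of 22 rising members (13.6%), against 14.1% of tested genes and 11.5% of all 27025 genes with a window. The matches were in Psmb5, Psmb6, Psmc6, Psmd12 and Psmd9. The CCAAT box, read as CCAAT, was present in 10 of 22 rising members (45.5%), against 41.0% of tested genes. The gamma-activated site TTCNNNGAA was in 2 of 39 members, Psmb8 and Psmg1 (5.13%, against 7.06% of tested genes), and the interferon-stimulated response element, searched as GAAA repeated after any 2 bases, in 3 of 39, Psmb3, Psmd4 and Psmd9 (7.69%, against 3.16%). No match shared a base with another. A match describes letters in this window only and is not a measured site.

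The immunoproteasome genes were lower with tyramine, in the opposite direction to the constitutive genes they replace. Psmb9 and Psmb10 fell, and Psmb8 had the same pattern without passing the threshold. In all 3 the groups did not overlap, tyramine below, where 23.6% of all genes tested had that pattern. Their median log2 fold change was -2.70, also with Psmb9 at its bound, and their summed share of counts was 0.28 times that of DMSO.

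Psmb9 (chromosome 17, 34181987 to 34187764, minus strand, GRCm38) encodes the counterpart of Psmb6 and had 0 counts in each tyramine library, against 134, 115 and 87 counts in DMSO replicates 1 to 3. Against a floor of 3 counts per tyramine library, it was at least 34.8-fold lower (30.6 to 37.2 with 1 DMSO library left out; edgeR's adjusted p = 0.00324). Psmb8 (chromosome 17, 34197721 to 34201454, plus strand), the counterpart of Psmb5, had 40, 0 and 11 counts with tyramine and 154, 102 and 110 counts with DMSO. Its level was 0.598 ± 0.730 CPM with tyramine and 3.91 ± 1.14 CPM with DMSO (SD, n = 3 each), a log2 fold change of -2.70 with an SE of 1.36 and an edgeR's adjusted p = 0.182. The tyramine libraries ran between 0 and 40 counts, and Psmb8 passed the threshold under none of the 15 alternatives (adjusted p = 0.0542 to 0.396).

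Psmb10 (chromosome 8, 105935735 to 105938444, minus strand), the counterpart of Psmb7, was the most counted of the 3, with 4.98, 5.32 and 7.76 CPM with tyramine and 13.8, 16.0 and 14.6 CPM with DMSO. It fell 2.46-fold (log2 fold change -1.30, SE 0.36; edgeR's adjusted p = 0.0234). The groups were well apart, but the call was lost without any 1 DMSO library, where the adjusted p was 0.0734 to 0.111 and the log2 fold change -1.36 to -1.24. At these low levels the standard errors are far wider than those of the structural genes. Psmb11, the beta subunit gene of cortical thymus, had 28 counts in tyramine replicate 3 and 0 in the other 5 libraries and was not tested.

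The constitutive counterparts moved the other way or did not pass. Psmb7 had 221, 232 and 258 CPM with tyramine against 154, 153 and 164 CPM with DMSO, a 1.51-fold rise (edgeR's adjusted p = 0.00246). Psmb5, which encodes the chymotrypsin-like site, had 47.4, 56.3 and 39.5 CPM with tyramine and 30.7, 32.0 and 28.6 CPM with DMSO, a 1.57-fold rise (edgeR's adjusted p = 0.0352). Psmb6 had 120, 156 and 94.2 CPM with tyramine, against 92.7, 97.1 and 91.8 CPM with DMSO. Tyramine replicate 3 lay inside the DMSO range of Psmb6, and the gene did not pass (log2 fold change 0.40, adjusted p = 0.13).

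**Figure D3:**
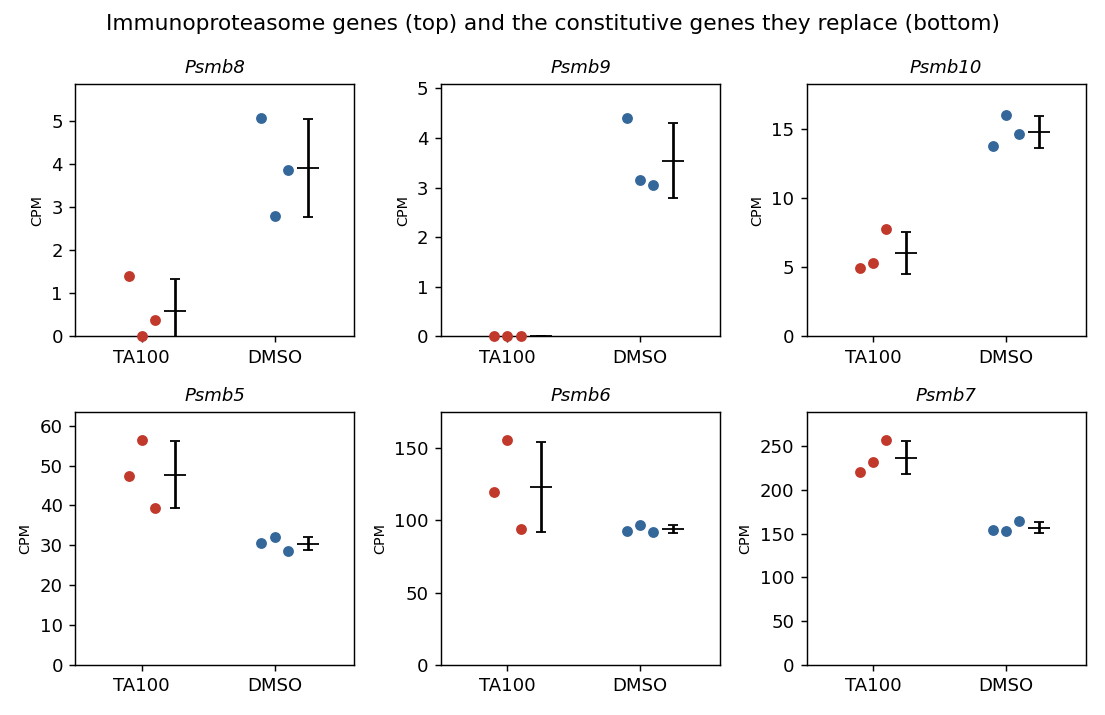
CPM of the immunoproteasome genes (upper row) and of the constitutive genes they replace (lower row) in each tyramine (TA100) and DMSO library; the bars give mean and SD of 3 libraries. Psmb8, Psmb9 and Psmb10 lie lower with tyramine in every library, and Psmb5 and Psmb7 lie higher.

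Counted within each library, which removes any effect of scaling, there were 2.98, 0 and 0.970 Psmb8 counts per 100 Psmb5 counts with tyramine, against 16.5, 8.76 and 13.5 with DMSO. Psmb10 stood at 2.26, 2.29 and 3.01 counts per 100 Psmb7 counts with tyramine and 8.95, 10.5 and 8.91 with DMSO (2.52 ± 0.427 and 9.45 ± 0.896, SD, n = 3 each). Psmb9 was at 0 per 100 Psmb6 counts in each tyramine library, where 3 counts would have given at most 0.111, against 4.76, 3.25 and 3.33 with DMSO. In all 3 pairs each tyramine library was below each DMSO library. The ratios are not corrected for length (union exons of 3381 bases for Psmb8 and 899 for Psmb5). They therefore compare libraries and do not give relative amounts of the paired genes. Psmb5, Psmb6 and Psmb7 have processed pseudogenes, and how reads were split from those is unknown here. The exact two-sided permutation test gave p = 0.1 for each, and 0.1 after adjustment over the 3 ratios, which is the smallest p that 3 against 3 libraries can give.

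**Figure D4:**
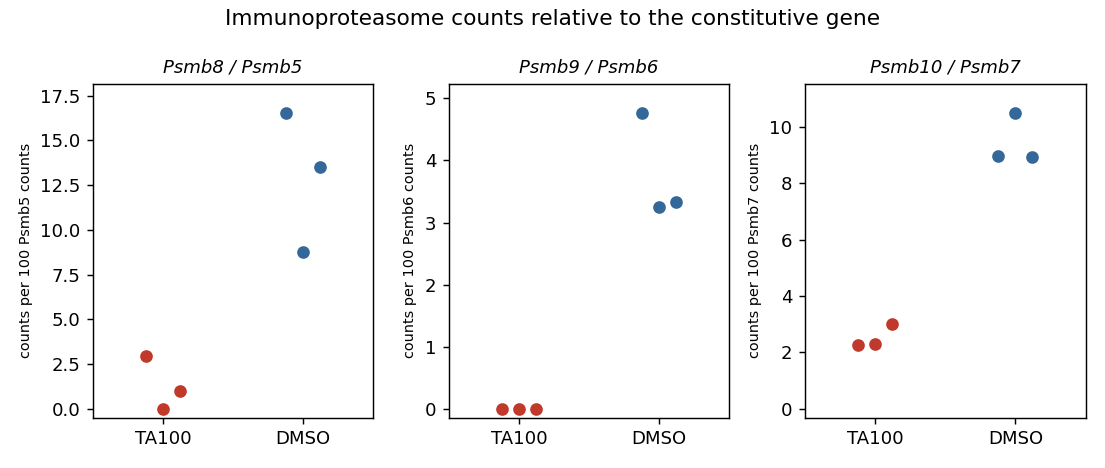
Counts of each immunoproteasome gene per 100 counts of the constitutive gene it replaces, in each tyramine (TA100) and DMSO library. The tyramine values run from 0 to 3.01 and the DMSO values from 3.25 to 16.5. Counts are not corrected for gene length.

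Psmb8 and Psmb9 lie beside the peptide transporter genes Tap1 and Tap2 in the class II region of the major histocompatibility complex. The annotated span of Tap1 (chromosome 17, 34187553 to 34197225, plus strand) overlaps the start of Psmb9 on the opposite strand, and the strand setting of the counting is unknown here. Tap1 had 4.73, 3.15 and 7.03 CPM with tyramine and 10.8, 10.1 and 9.12 CPM with DMSO, without overlap but not past the threshold (log2 fold change -1.01, adjusted p = 0.134). In the list of 24 class I presentation and interferon genes, 18 had enough counts, of which 2 rose, 2 fell and 14 did not pass, with a median log2 fold change of -0.24. Those shares lie near the 12.5% rising and 13.3% falling over all genes, so the calls show no direction. The log2 fold changes of the list leaned down, 13 of the 18 being below 0 and 5 above. Over all 12139 genes tested, 6046 were below 0 and 6093 above. That lean was not tested. Erap1, which trims class I peptides in the endoplasmic reticulum, fell 2.23-fold, to 16.9 ± 1.69 CPM with tyramine, against 37.6 ± 7.04 CPM with DMSO (SD, n = 3 each; edgeR's adjusted p = 0.00534).

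Both genes of the list that rose encode class I heavy chains. H2-D1 rose 1.92-fold to 716 ± 49.5 CPM with tyramine, against 372 ± 21.5 CPM with DMSO (SD, n = 3 each; edgeR's adjusted p = 7.04e-05). H2-K1 rose 1.55-fold. Markers of leukocytes, cells that carry much immunoproteasome, were at 6.98 to 10.9 CPM in sum with tyramine and 5.75 to 9.79 CPM with DMSO. Of those 17 markers 7 were at 0 in all 6 libraries, Cd3g, Cd79a, Ms4a1 and Tyrobp among them. Others were counted, with Lyz2 at 46 to 51 counts with tyramine and 29 to 57 counts with DMSO. Cd3e had 41 counts in tyramine replicate 1, and Csf1r had 74 counts in tyramine replicate 3. Most of the sum came from Itgam, an integrin of myeloid cells, at 5.91 ± 0.869 CPM with tyramine and 6.06 ± 1.48 CPM with DMSO (SD, n = 3 each). The part of leukocyte RNA in the immunoproteasome values was not tested. Ptprc, which encodes the pan-leukocyte antigen CD45, was at 0.126 to 0.141 CPM with tyramine and 0.110 to 0.165 CPM with DMSO.

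The activators split. Psme1, which encodes the alpha chain of the interferon-inducible cap PA28, had 156, 127 and 105 CPM with tyramine and 215, 258 and 295 CPM with DMSO. The gene, whose span overlaps Emc9 on the opposite strand, fell 1.98-fold without overlap (log2 fold change -0.99, SE 0.16; edgeR's adjusted p = 0.00189). Psme2, the beta chain of the same cap, had 20.3, 18.8 and 19.1 CPM with tyramine, against 18.9, 28.1 and 21.6 CPM with DMSO, and did not pass (log2 fold change -0.24, SE 0.25). The groups overlapped in Psme2, and its copy Psme2b, a separate gene outside the symbol rule, was counted higher, at 52.6, 53.4 and 60.9 CPM with tyramine and 63.9, 59.7 and 67.5 CPM with DMSO. The sources used here do not say how reads were split between these similar sequences, so the level of Psme2 is uncertain.

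Psme3 encodes the nuclear activator that is related to PA28 and had 76.7, 87.6 and 102 CPM with tyramine and 92.4, 94.6 and 92.2 CPM with DMSO. Its tyramine values lay on both sides of the DMSO values, and its log2 fold change of -0.07 was the 1 among the tested members that changed sign over the alternatives (-0.18 to 0.03). Psme4, which encodes the large activator PA200, had 187, 207 and 257 CPM with tyramine, against 143, 135 and 143 CPM with DMSO, and rose 1.55-fold without overlap (log2 fold change 0.63, SE 0.13; edgeR's adjusted p = 0.00621). Psmf1, the gene of the proteasome inhibitor PI31, had 31.1, 30.5 and 25.2 CPM with tyramine and 21.9, 20.7 and 28.1 CPM with DMSO, overlapping and not past the threshold (log2 fold change 0.30).

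Assembly genes did not move as a block. Among the chaperones of the regulatory particle, Psmd5 had 156.5, 137 and 137 CPM with tyramine, against 69.9, 101 and 97.0 CPM with DMSO, and rose 1.61-fold without overlap (log2 fold change 0.69, SE 0.16; edgeR's adjusted p = 0.0096). Psmd9 and Psmd10, the other chaperones of this group, did not pass (log2 fold changes 0.24 and 0.13). None of the 4 core particle chaperone genes passed, and 3 of the 4 had log2 fold changes below 0, where 6046 of all 12139 genes tested did. With 4 genes, those signs give no direction.

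Psmg1 and Psmg2 encode partners that start the alpha ring. Psmg1 had 5.15, 5.76 and 8.88 CPM with tyramine and 9.48, 8.86 and 10.2 CPM with DMSO (log2 fold change -0.53, SE 0.41). Psmg2 had 9.04, 4.12 and 4.46 CPM with tyramine and 10.9, 7.08 and 9.54 CPM with DMSO (log2 fold change -0.64, SE 0.47). Tyramine replicate 3 of Psmg1 and tyramine replicate 1 of Psmg2 reached into the DMSO range.

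Psmg3 and Psmg4 encode the other pair of core chaperones. The span of Psmg3 overlaps the protein-coding gene Gm26938 on the same strand. Psmg3 had 12.8, 2.99 and 2.99 CPM with tyramine and 10.7, 13.2 and 15.4 CPM with DMSO (log2 fold change -1.07, adjusted p = 0.224). Tyramine replicate 1 stood at the DMSO level and the other two well under it, and without that library Psmg3 passed the threshold with a log2 fold change of -2.13 (adjusted p = 0.0086). Psmg4 had 14.9, 7.55 and 9.05 CPM with tyramine and 3.36, 7.29 and 10.1 CPM with DMSO, overlapping (log2 fold change 0.60, SE 0.50). These 4 genes had at most 481 counts per library, and the SEs of their log2 fold changes were 0.41 to 0.59, against 0.09 to 0.25 for the 31 structural genes.

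**Figure D5:**
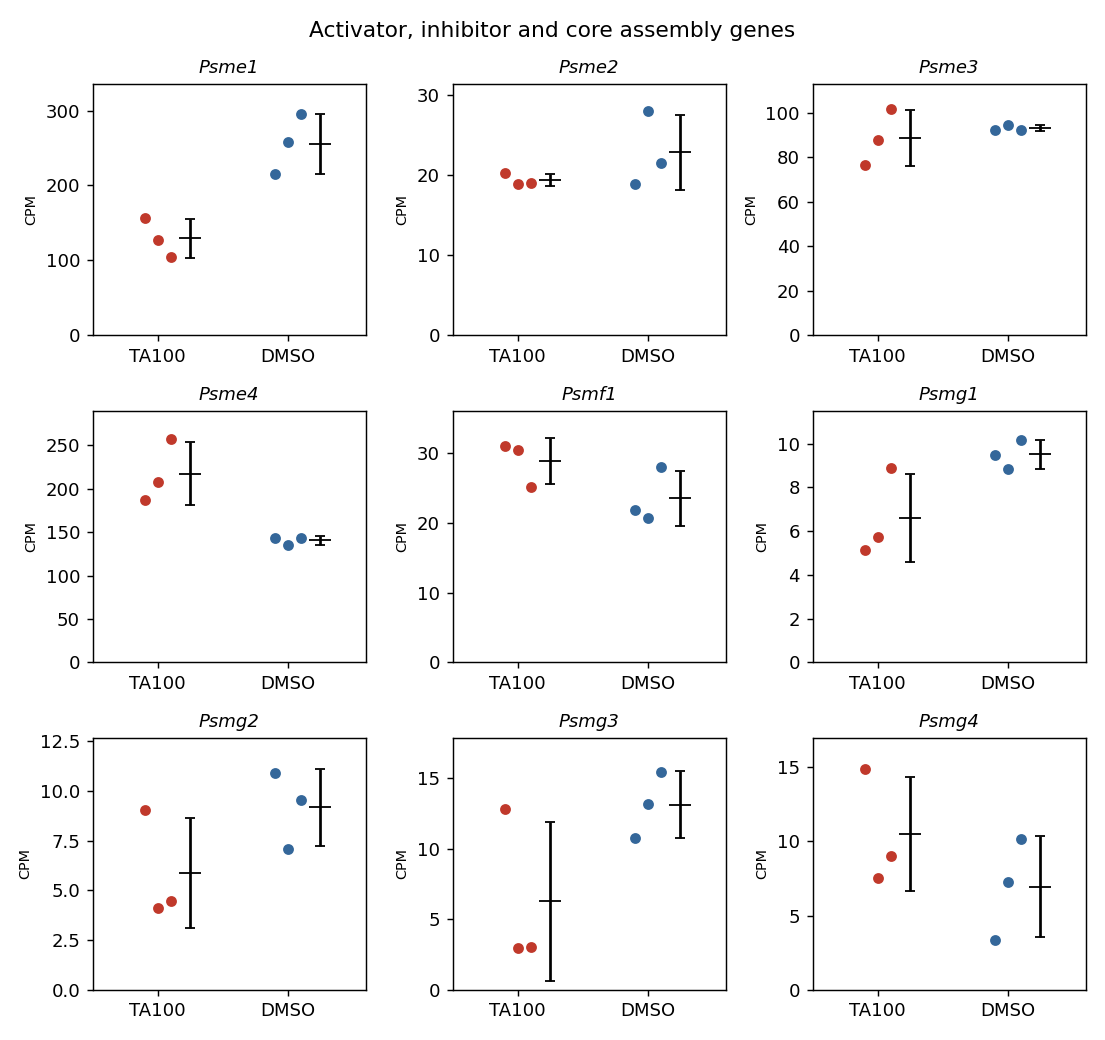
CPM of the activator genes Psme1 to Psme4, the inhibitor gene Psmf1 and the core assembly genes Psmg1 to Psmg4 in each tyramine (TA100) and DMSO library; the bars give mean and SD of 3 libraries. Psme1 lies lower and Psme4 higher with tyramine without overlap, and in the other 7 genes the groups overlap.

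Among genes that work with the proteasome, more rose than fell. Of a list of 25 partners and regulators in the counts, 10 rose, 1 fell and 14 did not pass, against 12.5% rising and 13.3% falling over all genes, with a median log2 fold change of 0.34. Zfand5, a zinc finger protein that binds and stimulates the proteasome, had 84.9, 98.0 and 134.5 CPM with tyramine and 30.0, 32.4 and 26.9 CPM with DMSO, a 3.55-fold rise (log2 fold change 1.83, SE 0.20; edgeR's adjusted p = 0.00012). Zfand2a, a related protein induced by arsenite, rose 2.53-fold, and Ube3a, a ubiquitin ligase found on proteasomes, rose 2.06-fold. AI314180, the mouse gene of the adaptor protein ECM29, rose 1.83-fold, Txnl1, a thioredoxin-like protein of the regulatory particle, 1.92-fold, and Tpp2, a peptidase that acts after the proteasome, 1.93-fold.

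The ubiquitin receptor gene Adrm1 rose 1.80-fold, whereas Uchl5, the deubiquitinase that its protein anchors, fell to 108 ± 2.75 CPM with tyramine, against 151 ± 10.1 CPM with DMSO (log2 fold change -0.48, SE 0.11; edgeR's adjusted p = 0.0102, and not past the threshold without DMSO replicate 3). Pomp, the chaperone that completes the beta ring, and Sem1, the smallest lid subunit, did not pass (log2 fold changes 0.28 for both). The transcription factor genes Nfe2l1 and Nfe2l2 had log2 fold changes of 0.29 and 0.40 with edgeR's adjusted p-values of 0.0516 and 0.0745, and Ddi2, the protease that activates NFE2L1, had -0.45 with 0.0703. In all 3 the groups did not overlap, where over all genes tested 20.9% had tyramine above and 23.6% had tyramine below. None of the 3 passed. Nfe2l1, Nfe2l2, Ddi2, Adrm1, Pomp and Sem1 were named after their values were seen. Uchl5 and Tap1, like them, fall outside the rule for naming genes that is given below.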

How the data were processed

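RNA was sequenced from 6 organoid libraries; per the labels' protocols, a stranded mRNA kit with molecular identifiers was read as paired ends. The submitters' processing notes name STAR 2.5.3a and mm10. The table deposited by the authors gives unnormalized counts by gene symbol for each library. The counter, annotation, strand setting and counted unit (reads or identifiers) are unknown here. Counts of 1 to 8 were even in 72.6% to 78.7% of cases, so 1 count may not be 1 molecule, and floors cover counting error only.

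Genes were filtered with filterByExpr (minimum count 10, total 15), leaving 12139, scaled by TMM and tested with edgeR 4.0.16 (R 4.3.3, robust quasi-likelihood, group as the only term). CPM use effective library sizes, and the SE is the absolute log2 fold change over the square root of F. Positions and union exon lengths are from GENCODE M21 (GRCm38), and promoters are RefSeq's. In GENCODE, 9 of the 48 members overlap a protein-coding gene on the opposite strand. On the same strand 3 do (Psma2, Psmd1 and Psmg3), so that shared reads are uncertain. Alternatives were other scaling, filters, DESeq2 1.42.0, limma-voom (limma 3.58.1), robust estimation off, a replicate block, halved counts and each library left out. The fitting was tested on data simulated from its own estimates of level and spread, which does not test the calls made on these libraries. Members, roles and lists were chosen with earlier results of these data known. By rule, values per library are given for the immunoproteasome genes, their counterparts, activators, inhibitor and core assembly genes, and elsewhere for the member of each role with the smallest p or largest change; from each list, up to 6 called genes with the smallest p, of which 1 is not reported here. Library values of Psmd7, Psma2 and Psmc2 were added after they were seen.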

Additional observations from a re-analysis of the deposited data

How the results depend on the processing

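Over 15 alternatives, 45 of the 46 tested members kept the sign of their log2 fold change, Psme3 being the exception, and no called member reversed. Of the 25 rising members 15 were called in every alternative, as were Psmb9 and Psme1 of the 3 falling ones. With scaling to library totals alone the members' median log2 fold change was 0.39 and 21 members rose; the ratio of their share of counts was 1.36 when the 10 most counted genes were left out of the totals. The partner genes called falling numbered 2 with library totals alone, DESeq2 or limma-voom. Leaving out each library gave 1977 to 3307 genes called in all (3127 with every library), 16 to 28 rising and 2 to 4 falling members, 0 to 2 falling partner genes, a members' median of 0.39 to 0.53 and a share ratio of 1.28 to 1.32. Same-numbered libraries did not deviate together (correlations of -0.02, -0.01 and 0.01), and 1 of the 3 DMSO libraries correlated best with the tyramine library of its number. No pairing by number was thus seen, though so few libraries cannot exclude one. With the replicate block 2594 genes were called, 21 members rose and 2 fell, and 9 partner genes rose. The log2 differences of the count ratios with a library left out were -5.75 to -2.88 (Psmb8 to Psmb5), -7.25 to -6.82 (Psmb9 to Psmb6) and -2.05 to -1.84 (Psmb10 to Psmb7). In these ratios 1 count stood in for each 0, in every tyramine library for Psmb9 and in 1 for Psmb8. The Psmb9 range therefore depends on that choice, and the Psmb8 range does in part. Depth limits the genes with few counts: Psma8 and Psmb11 could not be tested, and Psmb9 has a bound only.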
